A study of Mus musculus with 6 samples.

Results

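The T cell coreceptor genes Cd4, Cd8a and Cd8b1, the CD3 and zeta chain genes Cd3d, Cd3e, Cd3g and Cd247, and the proximal signalling genes Lck, Zap70 and Themis were followed in sorted mouse thymocytes. They were taken by gene symbol, and all 10 were found once each among 22298 listed genes. The cells were labelled double-negative (DN), early precursors defined by the absence of surface CD4 and CD8, and the protocol speaks of their DN2 stage. They came from untreated C57BL/6 mice of genotype Toxf/fPdcd1Cre, in which both copies of Tox are flanked by recombination sites and a Cre named for Pdcd1 is present, and from Toxf/f mice, which carry the same flanked Tox and no Cre. Each genotype had 3 samples, replicates 1 and 2 at 3 weeks of age and replicate 3 at 4 weeks. The files of Toxf/f replicates 1 and 2 held the same values and were counted as 1 library, so 3 Toxf/fPdcd1Cre libraries stood against 2 Toxf/f libraries.

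A T cell receptor (TCR) has no signalling part of its own. It is carried to the surface by the CD3 gamma, delta and epsilon chains and the zeta chain, whose cytoplasmic tails are phosphorylated by the kinase Lck and then bind the kinase Zap70. CD4 and CD8 bind MHC molecules and bring Lck to the receptor, and THEMIS, a thymocyte protein, acts downstream and is needed for normal positive selection. In the thymus, Cd4 and Cd8 transcripts are known to become abundant as cells pass from the DN to the CD4+CD8+ (DP) stage, whereas the CD3 genes and Lck are already transcribed in DN cells.

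The libraries held 14245492 to 16199195 estimated counts. Whether a sample is 1 mouse or a pool is not labelled, and replicate 3 of each genotype differs in age from the other replicates, so the spread behind the p-values includes that of age. Tox, the targeted gene, was at 4.98, 4.01 and 3.34 FPKM in the Toxf/fPdcd1Cre libraries and at 31.1 and 27.5 FPKM in the Toxf/f libraries, where FPKM is a level scaled to gene length and library size. The Toxf/f mice lack Cre as well as the deletion, so effects of Cre and of Tox loss cannot be told apart. Toxf/fPdcd1Cre replicate 1 held 1 count of the chromosome Y gene Ddx3y, against 843 to 1354 in the other 4 libraries, and each fold change and tested ratio below was also computed without it.

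The coreceptor genes were among the most abundant transcripts in every library of both genotypes. Cd4, the coreceptor for MHC class II, was at 237.3, 305.5 and 270.2 FPKM in Toxf/fPdcd1Cre replicates 1 to 3, against 296.4 FPKM in the library shared by Toxf/f replicates 1 and 2 and 281.2 FPKM in Toxf/f replicate 3. Both Toxf/f values lay inside the Toxf/fPdcd1Cre range. Cd8a, the alpha chain of CD8, the coreceptor for MHC class I, was at 546.7, 639.2 and 575.0 FPKM in the Toxf/fPdcd1Cre libraries and at 614.1 and 472.6 FPKM in the Toxf/f libraries. Its lowest value was that of Toxf/f replicate 3 and its highest that of Toxf/fPdcd1Cre replicate 2. Cd8b1, the beta chain that pairs with the alpha chain on conventional thymocytes, was at 645.7, 882.0 and 791.4 FPKM in Toxf/fPdcd1Cre and at 889.3 and 696.2 FPKM in Toxf/f libraries, and the genotypes overlapped. By mean FPKM over the 5 libraries, Cd8b1, Cd8a and Cd4 ranked 93, 129 and 226 among all listed genes.

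Cd8b1 and Cd8a lie on the plus strand of chromosome 6 in GRCm38, from 71322788 to 71337494 and from 71373427 to 71379173, separated by 35933 bases. Cd4 lies on the minus strand of the same chromosome, from 124864692 to 124888221. No other listed gene overlaps any of them in GENCODE M21. RefSeq promoter entries (GRCm38.p6) matched 8 of the 10 genes. The 250 bases before the Cd8a start are shown as an example of a promoter of the CD8 pair whose transcripts were abundant here. Capitals mark matches on either strand to CANNTG (E-box), TGTGGT (RUNX) or AGGAAG (ETS).
Cd8a, chr6:71373177-71373426, plus strand: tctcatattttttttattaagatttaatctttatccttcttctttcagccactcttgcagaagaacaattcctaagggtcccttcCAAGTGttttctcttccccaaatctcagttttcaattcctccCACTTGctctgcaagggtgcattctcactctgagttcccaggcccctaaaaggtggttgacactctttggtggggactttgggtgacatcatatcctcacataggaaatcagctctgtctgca
Of the 3 motifs the E-box alone occurred in this window, at 2 places, and 66.2% of all promoters of this length hold at least 1. A match of letters is a description and not a binding site.

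The coreceptor levels go against libraries made only of DN2 cells. Transcripts that mark the DN2 to DN3 stages were present but much lower. Il2ra, which encodes CD25 and defines the DN2 and DN3 stages, was at 32.1, 21.8 and 25.5 FPKM in Toxf/fPdcd1Cre and at 20.4 and 29.6 FPKM in Toxf/f libraries. Within a library, Cd4 was thus 7.40 to 14.0 times Il2ra in Toxf/fPdcd1Cre and 9.50 and 14.5 times Il2ra in Toxf/f cells. Kit, the stem cell factor receptor of the earliest precursors and of DN2 cells, was at 1.90 to 3.93 FPKM in Toxf/fPdcd1Cre and at 3.27 and 5.0 FPKM in Toxf/f libraries, and Cd4 was 60.4 to 161 times Kit in Toxf/fPdcd1Cre and 56.2 and 90.6 times Kit in Toxf/f libraries. Cd44, the adhesion receptor that marks the same early stages, was at 7.29 to 10.6 FPKM in Toxf/fPdcd1Cre and at 13.8 and 14.8 FPKM in Toxf/f libraries.

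The 2 highest of 8 DP stage genes stood at the height of the coreceptors. The recombinase gene Rag1 was at 658.9 to 803.4 FPKM in Toxf/fPdcd1Cre and at 643.9 and 689.2 FPKM in Toxf/f libraries, and the terminal transferase gene Dntt at 738.7 to 978.3 and at 681.9 and 827.7 FPKM. Both are also transcribed in DN3 cells, so these 2 genes alone do not tell the stages apart. The 8 DP stage genes summed to 2231 to 2671 FPKM in Toxf/fPdcd1Cre and to 2235 and 2413 FPKM in Toxf/f libraries. Rag1 and Dntt made up most of that sum in each library, and Cd1d1, the lowest of the 8, averaged 24.2 FPKM. The 7 DN2 to DN3 stage genes summed to 106 to 136 and to 85.6 and 117 FPKM. For the 9 early DN genes the sums were 25.1 to 37.9 and 41.1 and 51.0 FPKM. Of these 24 stage genes, 2 passed the test of the genotypes described below, both lower in Toxf/fPdcd1Cre, where 1.64% of all tested genes passed. They were Cd44 and the early progenitor receptor gene Flt3, which dendritic cells also express. Of 8 further genes that mark mature single-positive cells, 6 passed, all lower in Toxf/fPdcd1Cre. Surface protein was not measured in these files, so DP cells among the sorted cells and coreceptor transcripts within DN cells cannot be told apart, and in bulk RNA fewer cells of a type cannot be told apart from less RNA per cell.

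Cells other than thymocytes can also carry coreceptor transcripts. Some dendritic cells express Cd4 or Cd8a but not, as far as is known, the beta chain. Itgax, the dendritic cell integrin, was at 2.48 to 2.88 FPKM in Toxf/fPdcd1Cre and at 3.54 and 4.64 FPKM in Toxf/f libraries, and Cd8b1 was 224 to 343 times and 150 and 251 times Itgax in the same libraries. The 8 dendritic cell genes summed to 413 to 554 FPKM in Toxf/fPdcd1Cre and to 772 and 888 FPKM in Toxf/f libraries, most of it from Cd74, and the 6 macrophage genes to 226 to 314 and to 463 and 516 FPKM. The 6 B cell genes summed to 24.5 to 36.8 and to 36.3 and 49.2 FPKM, and the 8 thymic epithelial genes, led by Ccl25, to 916 to 1134 and to 895 and 1044 FPKM. The 6 erythroid genes, led by Hbb-bs, summed to 761 to 1601 and to 1661 and 2335 FPKM. Genes of mature single-positive cells summed to 126 to 144 FPKM in Toxf/fPdcd1Cre and to 224 and 269 FPKM in Toxf/f libraries, those of gamma-delta T cells to 191 to 250 and to 160 and 181 FPKM, and those of NK cells to 18.5 to 37.4 and to 21.8 and 27.8 FPKM. No marker on these lists was at 0 in any library. The summed early DN, dendritic cell, macrophage, erythroid and mature T cell genes did not overlap between genotypes and were lower in Toxf/fPdcd1Cre. The summed gamma-delta genes did not overlap and were higher. Taken singly, 26.2% of all tested genes did not overlap between genotypes. A sum follows its highest genes, such as Cd74, Lyz2 or Hbb-bs. Of 6 gamma-delta genes 2 passed the test described below, and of 5 tested NK genes 2, all higher in Toxf/fPdcd1Cre. On the NK list 3 genes had log2 fold changes below 0. Of 8 dendritic cell genes 2 passed as lower, Flt3 among them. The macrophage, B cell, thymic epithelial and erythroid lists had 0 calls, where 1.64% of all tested genes passed. The part of these other cells in the coreceptor levels was not tested.

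**Figure D1:**
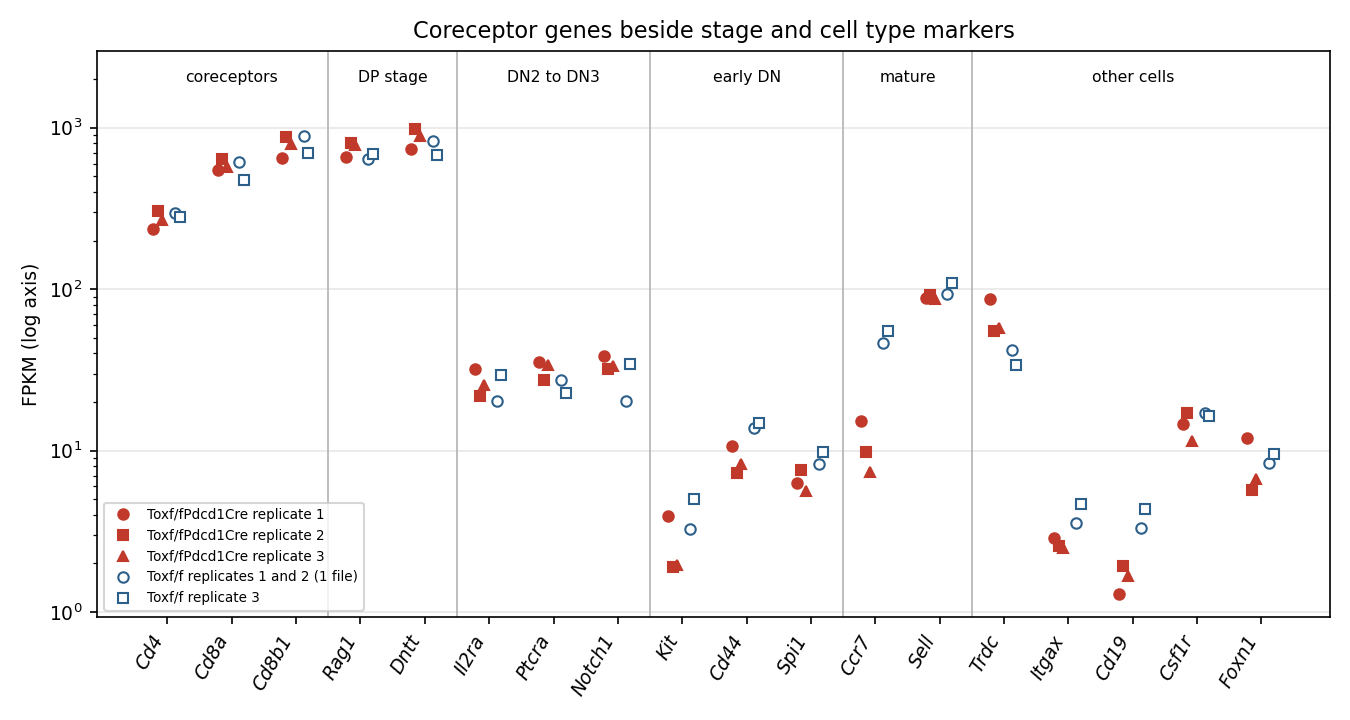
FPKM (log axis) of the 3 coreceptor genes beside marker genes of thymocyte stages and of other cells, in 3 Toxf/fPdcd1Cre libraries (filled) and 2 Toxf/f libraries (open); each point is 1 library. Cd4, Cd8a and Cd8b1 stand beside Rag1 and Dntt and above Il2ra, Ptcra, Notch1 and Kit in each of the 5 libraries.

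Among the 4 chains of the CD3 complex, Cd3g stood highest, then Cd247, while the ranges of Cd3e and Cd3d overlapped. For each of the 4 genes the genotypes overlapped. Cd3g, the gamma chain, was at 622.0, 627.0 and 633.9 FPKM in the Toxf/fPdcd1Cre libraries and at 652.4 and 562.6 FPKM in the Toxf/f libraries, so that the 2 Toxf/f libraries held both the highest and the lowest value. Cd247, the zeta chain, which carries more of the phosphorylated tail motifs than any single CD3 chain, was at 325.6, 398.4 and 365.0 FPKM in Toxf/fPdcd1Cre and at 387.4 and 357.3 FPKM in Toxf/f libraries. Cd3e, the epsilon chain, was at 157.1, 160.7 and 166.3 FPKM in Toxf/fPdcd1Cre and at 197.7 and 147.4 FPKM in Toxf/f libraries. Cd3d, the delta chain, was at 148.0, 186.4 and 140.4 FPKM in Toxf/fPdcd1Cre and at 178.3 and 136.1 FPKM in Toxf/f libraries. The epsilon chain is present in more copies per receptor than gamma or delta, yet by transcript Cd3g was 3.81 to 3.96 times Cd3e in Toxf/fPdcd1Cre and 3.30 and 3.82 times Cd3e in Toxf/f libraries.

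Cd3g and Cd3d are neighbours on chromosome 9 that are read in opposite directions. Cd3g runs on the minus strand from 44969572 to 44980431 and Cd3d on the plus strand from 44981786 to 44987339, with 1355 bases between their starts, and Cd3e follows on the minus strand from 44998740 to 45009627. Even so, Cd3g was 3.36 to 4.52 times Cd3d in Toxf/fPdcd1Cre and 3.66 and 4.13 times Cd3d in Toxf/f libraries, on the FPKM scale. The 250 bases before the 3 starts are shown 5′ to 3′ on the strand of each gene, with the same letters in capitals as above. They are given because Cd3g stood above Cd3d and Cd3e in each of the 5 libraries. The ranges of Cd3e and Cd3d overlapped.
Cd3g, chr9:44980432-44980681, minus strand: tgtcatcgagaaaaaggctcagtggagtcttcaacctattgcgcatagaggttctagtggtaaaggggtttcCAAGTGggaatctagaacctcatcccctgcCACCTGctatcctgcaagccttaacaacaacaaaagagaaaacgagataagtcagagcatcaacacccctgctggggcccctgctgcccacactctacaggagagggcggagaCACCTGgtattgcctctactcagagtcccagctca
Cd3d, chr9:44981536-44981785, plus strand: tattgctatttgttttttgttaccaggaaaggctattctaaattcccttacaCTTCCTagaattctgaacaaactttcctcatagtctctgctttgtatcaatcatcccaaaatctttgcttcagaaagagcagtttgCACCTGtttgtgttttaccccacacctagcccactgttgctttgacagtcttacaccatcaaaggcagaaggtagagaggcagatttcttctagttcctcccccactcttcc
Cd3e, chr9:45009612-45009861, minus strand: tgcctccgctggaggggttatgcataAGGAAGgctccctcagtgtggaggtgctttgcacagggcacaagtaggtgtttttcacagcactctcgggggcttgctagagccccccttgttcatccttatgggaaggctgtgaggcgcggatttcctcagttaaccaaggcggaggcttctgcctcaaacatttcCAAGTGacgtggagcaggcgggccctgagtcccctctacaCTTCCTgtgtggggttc
The Cd3g window held 3 E-box matches and 0 of the ETS letters, the Cd3d window 1 of each, and the Cd3e window 1 E-box and 2 ETS matches. None of the 3 held TGTGGT, which occurs in 14.0% of all promoters of this length, and the ETS letters occur in 29.5%. TATAAA, on either strand, was in 0 of the 12 windows of the 8 genes and is in 12.4% of all promoters. Cd247 lies on chromosome 1 from 165788681 to 165877277 and overlaps Pou2f1, a gene on the opposite strand. Its counts were not whole numbers in any of the 5 libraries, and whether the counting used strand is not stated, so its level may hold some reads of that gene.

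Among the proximal signalling genes, the kinase genes differed widely in level. Lck, the kinase that phosphorylates the CD3 and zeta tails, was at 584.7, 664.8 and 615.9 FPKM in Toxf/fPdcd1Cre and at 637.4 and 587.7 FPKM in Toxf/f libraries, with both Toxf/f values inside the Toxf/fPdcd1Cre range. Zap70, the kinase that binds those tails, was at 55.3, 64.5 and 57.2 FPKM in Toxf/fPdcd1Cre and at 51.3 and 53.4 FPKM in Toxf/f libraries. Zap70 was higher in each of the 3 Toxf/fPdcd1Cre libraries than in either Toxf/f library, and it was the 1 gene of the 10 whose genotypes did not overlap, where 26.2% of all tested genes did not overlap, 12.6% with higher and 13.5% with lower values in Toxf/fPdcd1Cre. Lck was 10.3 to 10.8 times Zap70 in Toxf/fPdcd1Cre and 11 and 12.4 times Zap70 in Toxf/f libraries. Themis was at 131.4, 123.0 and 176.4 FPKM in Toxf/fPdcd1Cre and at 109.4 and 127.8 FPKM in Toxf/f libraries. Toxf/fPdcd1Cre replicate 3 alone stood high in Themis, and the other 4 libraries lay between 109.4 and 131.4 FPKM. Lck lies on chromosome 4 from 129548344 to 129573641, Zap70 on chromosome 1 from 36761798 to 36782818 and Themis on chromosome 10 from 28668360 to 28883818. Lck has 2 start sites in the RefSeq table, and the counts per gene do not separate them.

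**Figure D2:**
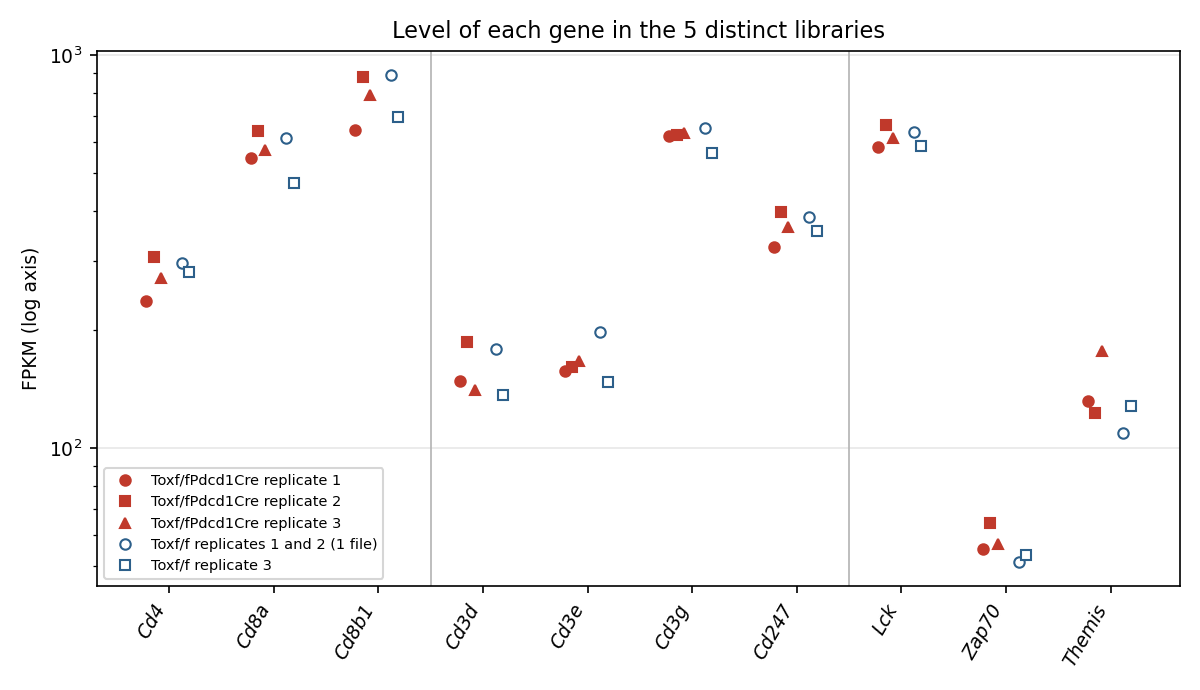
FPKM (log axis) of the 10 genes in 3 Toxf/fPdcd1Cre libraries (filled) and 2 Toxf/f libraries (open), 1 point per library; vertical lines separate coreceptors, CD3 and zeta chains, and signalling genes. The genotypes overlap for 9 genes, and for Zap70 the filled points at 55.3 to 64.5 lie above the open points at 51.3 and 53.4.

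The order of the 10 genes by mean FPKM was Cd8b1, Cd3g, Lck, Cd8a, Cd247, Cd4, Cd3e, Cd3d, Themis and Zap70. Cd8b1 at 781 FPKM was above Cd3g at 619.6 FPKM in 5 of 5 libraries, although their ranges overlapped. Cd3g and Lck, at 619.6 and 618 FPKM, could not be ordered, since Cd3g was the higher in 3 of 5 libraries. Lck was above Cd8a in 5 of 5 libraries by 1.04 to 1.24 times. The steps from Cd8a to Cd247, from Cd247 to Cd4, from Cd4 to Cd3e and from Themis to Zap70 were larger than the whole range over libraries. Cd3e and Cd3d kept their order in 4 of 5 libraries, as did Cd3d and Themis. The highest CPM (counts scaled to library size) of each gene was 1.20 to 1.47 times its lowest over the 5 libraries, with a median of 1.37, against 1.43 over all tested genes and 1.298 over the 2492 tested genes of at least 100 CPM. Together the 10 genes took 0.686%, 0.802% and 0.758% of all counts in the Toxf/fPdcd1Cre libraries and 0.795% and 0.680% in the Toxf/f libraries.

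The comparison of the genotypes asks whether these genes differ in level when Tox, a factor of T cell development, is targeted. None of the 10 genes passed the test in either direction. Over all 14121 tested genes, 1.64% passed, 1.51% as lower and 0.135% as higher, in edgeR's quasi-likelihood test on counts with a Benjamini-Hochberg adjusted p under 0.05. At an unadjusted p under 0.05 the count was also 0 of the 10 genes, against 10.3% of all tested genes, 7.26% as lower and 3.08% as higher, and DESeq2, limma-voom and limma on FPKM values each called 0. All 10 passed the filter on low counts. The log2 fold changes, Toxf/fPdcd1Cre minus Toxf/f, ran from -0.04 to 0.23 with a median of 0.08. The median was 0.03 over all tested genes and 0.09 over the 2492 tested genes with a mean of at least 100 CPM.

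For the coreceptors the intervals covered changes of either sign. Cd4 averaged 859 ± 133 CPM (SD, n = 3) in Toxf/fPdcd1Cre and 877 ± 45.5 CPM (SD, n = 2) in Toxf/f libraries. Its log2 fold change was -0.03 ± 0.159 (SE), with a 95% interval of -0.38 to 0.32, which corresponds to 0.770-fold to 1.25-fold (adjusted p = 0.980, edgeR). Cd8a averaged 1826 ± 195 CPM in Toxf/fPdcd1Cre and 1623 ± 322 CPM in Toxf/f libraries, with an interval of 0.872-fold to 1.45-fold (adjusted p = 0.846, edgeR). Cd8b1 averaged 1170.0 ± 216 CPM in Toxf/fPdcd1Cre and 1150.0 ± 215 CPM in Toxf/f libraries, with an interval of 0.769-fold to 1.35-fold (adjusted p = 0.985, edgeR). Changes within these intervals could not be told from the spread between libraries.

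The CD3 and zeta chains did not pass the test either. The log2 fold changes of Cd3g, Cd3d, Cd247 and Cd3e were 0.11 ± 0.141, 0.07 ± 0.174, 0.03 ± 0.152 and -0.04 ± 0.155 (SE), with adjusted p from 0.903 to 0.983 in edgeR. The widest interval of the 4, that of Cd3d, ran from 0.805-fold to 1.37-fold. Lck and Themis stood at 0.08 ± 0.146 and 0.17 ± 0.178 on the log2 scale (edgeR adjusted p = 0.929 and 0.850). Zap70 had the largest of the 10, 0.23 ± 0.136, with an interval of 0.954-fold to 1.44-fold and an adjusted p of 0.641 in edgeR. Zap70 averaged 134 ± 15.2 CPM (SD, n = 3) in Toxf/fPdcd1Cre and 115 ± 1.17 CPM (SD, n = 2) in Toxf/f libraries.

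**Figure D3:**
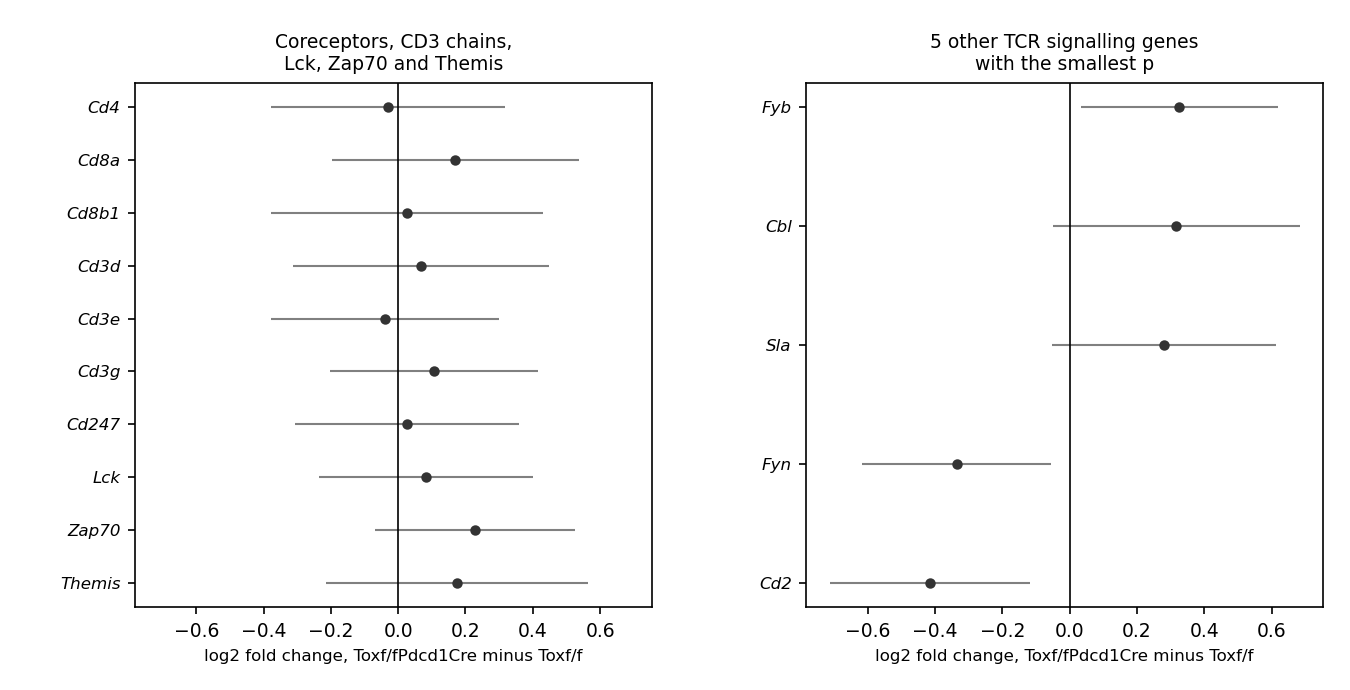
Log2 fold change, Toxf/fPdcd1Cre minus Toxf/f, of the 10 genes (left) and of the 5 genes with the smallest p among 37 others of proximal TCR signalling (right), as points with 95% intervals from edgeR's quasi-likelihood fit. The intervals of all 10 genes on the left include 0, and those of Cd2, Fyn and Fyb on the right do not, before adjustment over all genes.

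Of 37 other genes of proximal TCR signalling, 0 passed the test in either direction with edgeR, 18 had log2 fold changes below 0 and 19 above, and the median was 0.0042. DESeq2 and limma-voom also called 0. At an unadjusted p under 0.05 there were 3, where 10.3% of all tested genes reach that level. Cd2, an adhesion receptor that strengthens TCR contacts, had 129.7, 164 and 144 CPM in Toxf/fPdcd1Cre and 192 and 196 CPM in Toxf/f libraries, and its log2 fold change was -0.41 ± 0.136 (edgeR adjusted p = 0.231). Fyn, the second Src-family kinase of T cells, had 129, 150.2 and 139 CPM in Toxf/fPdcd1Cre and 169.7 and 182 CPM in Toxf/f libraries, giving -0.34 ± 0.128 on the log2 scale (edgeR adjusted p = 0.351). In both genes each Toxf/fPdcd1Cre library lay below each Toxf/f library. Fyb, an adaptor that links the TCR to integrins, had 288, 312 and 334 CPM in Toxf/fPdcd1Cre and 242 and 255 CPM in Toxf/f libraries, giving 0.33 ± 0.134 on the log2 scale (edgeR adjusted p = 0.405), and each Toxf/fPdcd1Cre library lay above each Toxf/f library. Cbl, a ubiquitin ligase that limits TCR signals, and Sla, an adaptor that lowers TCR levels on thymocytes, had log2 fold changes of 0.32 ± 0.167 and 0.28 ± 0.152 (adjusted p = 0.564 and 0.588, edgeR), and their genotypes overlapped. With the replicate number as a block Cd2 passed at -0.51 on the log2 scale (edgeR adjusted p = 0.0461), and over all alternatives its adjusted p ran from 0.0461 to 0.833.

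Ratios within a library do not depend on library scaling, and 4 were tested. Cd8b1 to Cd8a was 1.18, 1.38 and 1.38 in Toxf/fPdcd1Cre and 1.45 and 1.47 in Toxf/f libraries, on the FPKM scale. The 3 Toxf/fPdcd1Cre values lay below both Toxf/f values, and the difference of mean log2 ratios was -0.16 (two-sided exact permutation test over libraries, p = 0.3, adjusted over the 4 ratios 0.6). Without Toxf/fPdcd1Cre replicate 1 the difference was -0.084. Cd4 to Cd8a was 0.434, 0.478 and 0.470 in Toxf/fPdcd1Cre and 0.483 and 0.595 in Toxf/f libraries, a log2 difference of -0.22 with no overlap (exact permutation p = 0.1, the smallest this design allows, adjusted 0.4). It was -0.069 without Toxf/f replicate 3 and -0.37 without the library shared by Toxf/f replicates 1 and 2.

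The coreceptors together stood at 1.67, 1.89 and 1.83 times the CD3 and zeta chains in Toxf/fPdcd1Cre and at 1.77 and 1.80 times in Toxf/f libraries, as geometric means. The log2 difference was 0.0097 (exact permutation p = 1, adjusted 1). Against the 7 DN2 to DN3 stage genes the coreceptors stood at 34.4, 60.01 and 47.01 times in Toxf/fPdcd1Cre and at 66.9 and 39.0 times in Toxf/f libraries, a log2 difference of -0.15 (exact permutation p = 0.7, adjusted 0.933). In both of these ratios the genotypes overlapped. In the last, the values within a genotype differed by more than the genotype means did.

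Further ratios to partners in the same pathway are given as values with no test. Lck was 11.9 to 12.2 times Fyn in Toxf/fPdcd1Cre and 8.08 and 9.42 times Fyn in Toxf/f libraries, so these values did not overlap. Fyn was named above for its small p in the same comparison and was itself lower in each Toxf/fPdcd1Cre library. The ratio to Fyn is therefore no separate result. Lck was 1.76 to 2.11 times Lat, the membrane adaptor that Zap70 phosphorylates, in Toxf/fPdcd1Cre and 1.68 and 1.90 times Lat in Toxf/f libraries, which overlapped. Cd3e was 4.41 to 5.83 times Ptcra, the pre-TCR alpha chain that pairs with the beta chain before an alpha chain is made, in Toxf/fPdcd1Cre and 6.47 and 7.19 times Ptcra in Toxf/f libraries. Ptcra itself was at 35.6, 27.6 and 33.8 FPKM in Toxf/fPdcd1Cre and at 27.5 and 22.8 FPKM in Toxf/f libraries.

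**Figure D4:**
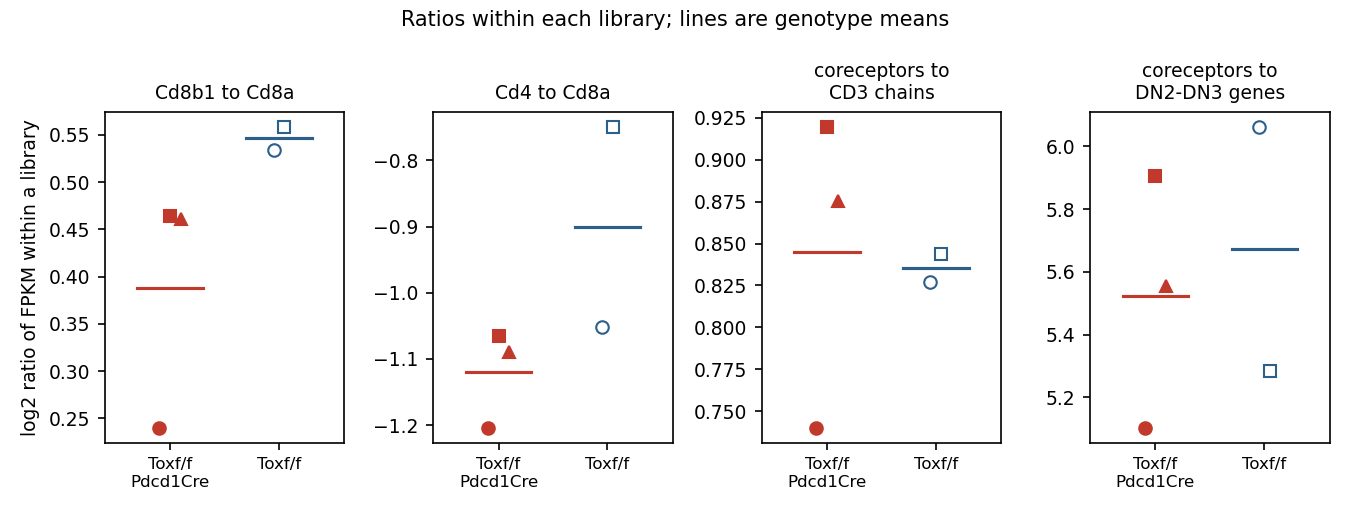
Log2 ratio of FPKM within each library for Cd8b1 to Cd8a, Cd4 to Cd8a, the 3 coreceptors to the 4 CD3 and zeta chains, and the coreceptors to 7 DN2 to DN3 stage genes, with Toxf/fPdcd1Cre libraries (filled) left of Toxf/f libraries (open); lines are genotype means and each panel has its own axis range. The genotypes do not overlap in the first pair of panels and overlap in the other two.

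Small differences of the 10 genes turned with the libraries compared. Between libraries from mice 4 weeks old, 1 of each genotype, the log2 difference was above 0 for 10 of 10 genes, from 0.05 for Cd4 to 0.53 for Themis. Between libraries from mice 3 weeks old, 2 Toxf/fPdcd1Cre and 1 Toxf/f, it was above 0 for Zap70 alone, at 0.23, and the lowest was that of Cd3e at -0.29. With 1 library in 1 or both arms these are values with no test. The share of all tested genes above 0 within each age was not computed, so these counts are no result about the 10 genes. Zap70 and Lck kept a positive log2 fold change whichever of the 5 libraries was left out, 0.14 to 0.27 and 0.01 to 0.16, and each of the other 8 genes changed sign at least once. Without Toxf/fPdcd1Cre replicate 1, again 0 of the 10 genes passed, and the smallest adjusted p was 0.348 in edgeR. Without Toxf/fPdcd1Cre replicate 3, the library high in Themis, the log2 fold change of Themis was -0.031.

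**Figure D5:**
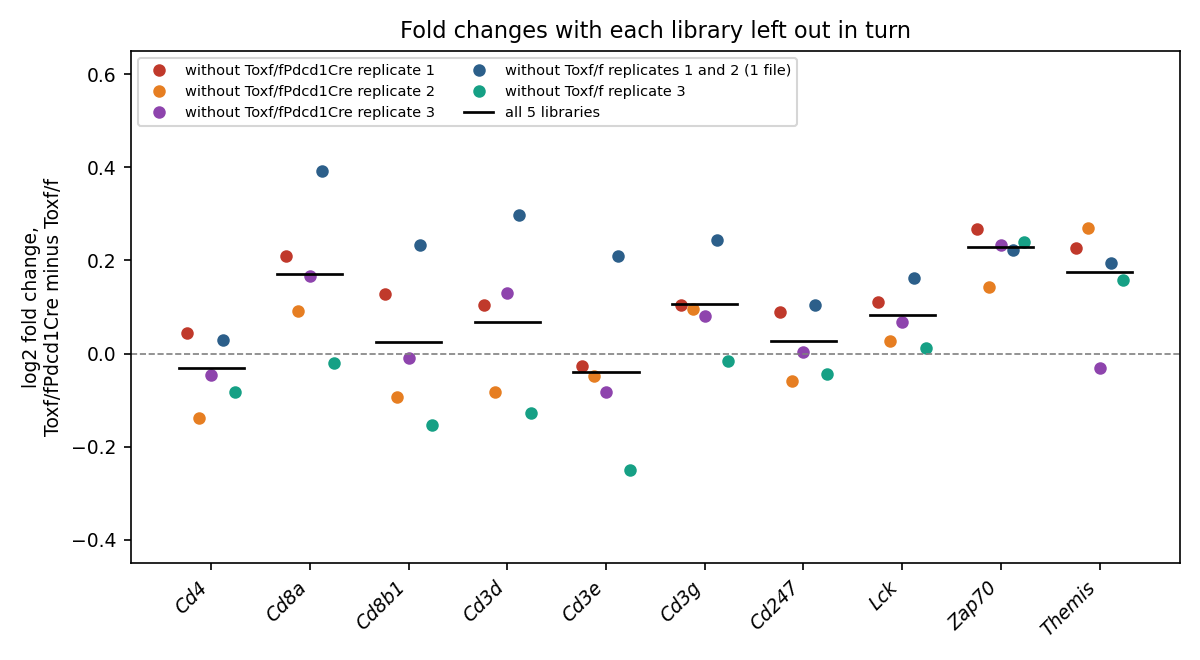
Log2 fold change, Toxf/fPdcd1Cre minus Toxf/f, of the 10 genes with each of the 5 distinct libraries left out in turn (points) and with all 5 (black lines), from edgeR. Zap70 and Lck stay above 0 throughout, and the points of the other 8 genes fall on both sides of 0.

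The genes whose profile over the 5 libraries was closest to that of Cd4 were Slc25a44, a mitochondrial carrier, Grb2, an adaptor of receptor signalling that is also on the list of other TCR signalling genes, and Pqbp1. Their root mean square differences from Cd4 were 0.0159, 0.0183 and 0.0234 on the centred log2 CPM scale, among 9187 genes compared. For Cd8a they were Ints10, Nsun5 and Polr2j, at 0.0234, 0.0334 and 0.0384. Among the 10 genes the profile closest to Cd4 was that of Cd247, at 0.0397, a distance that 43 of the compared genes reached. Such closeness over 5 libraries with small differences between them is a description and says nothing of shared control.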

How the data were processed

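Sorted thymocytes were lysed in Trizol and their RNA went through an NEBNext Ultra kit, per the labels' protocols. For each of 6 samples the authors deposited an estimated count and an FPKM value for each of 22298 genes, per the file headers. StringTie 1.3.1, HISAT2 and fastp 0.18.0 are named, with no roles, per the submitters' processing notes. The genome build, the annotation and whether strand was used in counting were not given in the sources used here, and GENCODE M21 and RefSeq coordinates on GRCm38 may differ from that build.

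The identical files of Toxf/f replicates 1 and 2, whose columns both carry the number 2, entered as 1 library. The deposited estimated counts were rounded, filtered with filterByExpr to 14121 genes, scaled by TMM and tested with edgeR 4.0.16 in R 4.3.3 by its quasi-likelihood test, Toxf/fPdcd1Cre minus Toxf/f, with Benjamini-Hochberg adjustment over all tested genes and a threshold of 0.05. Intervals of fold changes use the fit's SE. Levels between genes are the deposited FPKM values. The test was tested on simulated data. DESeq2 1.42.0 and limma 3.58.1 served as alternatives, with other scalings, filters, age, replicate blocks and each library left out.

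The 10 genes and the lists were chosen with earlier results of these data known. Named besides the 10 and Tox were the 5 other TCR signalling genes with the smallest p (and any that passed), the 2 highest and the first-listed gene of stage and cell type lists where useful, and the 3 genes nearest in profile to Cd4 and Cd8a among protein-coding genes of at least 10 CPM. Flt3 was named after its values were seen, to complete a count. Figures were drawn with matplotlib. Values of 1 gene on the list of other TCR signalling genes are not reported here.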

Additional observations from a re-analysis of the deposited data

How the results depend on the processing

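The 10 genes gave 0 calls under each of 16 alternatives, with adjusted p of 0.262 or more in all 160 gene and setting pairs, while the sign of their small fold changes turned in 25. Leaving out each library gave log2 fold changes of -0.14 to 0.045 for Cd4, -0.020 to 0.39 for Cd8a, -0.15 to 0.23 for Cd8b1, -0.13 to 0.30 for Cd3d, -0.25 to 0.21 for Cd3e, -0.016 to 0.24 for Cd3g, -0.059 to 0.11 for Cd247 and -0.031 to 0.27 for Themis. Cd8b1 and Cd247 turned to -0.0088 and -0.0074 with upper-quartile factors, to -0.037 and -0.036 when genes needed 10 CPM in 3 libraries, to -0.037 and -0.040 with limma on log2(FPKM + 1), and to -0.093 and -0.062 with the replicate block. Cd3d turned to -0.066 with that block, and Cd8b1 to -0.036 with the identical files counted separately. The list of 37 other TCR signalling genes had 0 calls under 15 of 16 alternatives and 1, Cd2, with the replicate block. The coreceptor ratio to CD3 chains ranged from -0.028 to 0.062 and that to DN2 to DN3 genes from -0.54 to 0.24 with each library left out, and the ratio tests cannot reach 0.05 with this number of libraries.

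Over all genes the count of 232 became 417 with no filter, 67 with that 10 CPM minimum, 359 with DESeq2, 113 with limma on FPKM, 125 with age as a covariate, 435 with the replicate block and 380 with the identical files counted separately, and 31 to 606 with each library left out. The cause was not tested. In the block, same-numbered libraries correlated at -0.198 and -0.157 in their deviations from the genotype mean and were not taken as pairs, although number 3 also marks the older mice of both genotypes. A block chosen after seeing the data, with the shared Toxf/f file under number 2 as its column names it (correlation 0.105), gave 868 calls over all genes and 0 of the 10, with Cd4 at 0.083 and Cd3e at 0.027. Each of the 10 genes had at least 1748 counts in each library, and each Toxf/f SD rests on 2 libraries.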
